A study of Homo sapiens with 9 samples.

Results

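Keratin transcripts were measured by RNA sequencing in MCF-10A, an immortalised breast epithelial line that forms no tumours, in 3 PIK3CA genotypes with 3 libraries each. The members were 34 named type I and type II keratin genes, found by gene identifier among the 60609 genes of the deposited tables. Of these, 20 are type II and 14 are type I genes. All 34 had at least 1 count in some library, 29 passed the filter on low counts and could be tested, and 22 reached a mean of 1 CPM (counts scaled to a common library size) in at least 1 genotype.

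The E545K line carries the helical-domain change of PIK3CA, the gene of the catalytic subunit of PI 3-kinase, and the H1047R line carries the kinase-domain change. Both are knock-in lines made from the MCF-10A background and were set against the parental line (WT). The study asked how transcription differs between these isogenic lines. Per the labels' protocols, maintenance medium held no EGF (epidermal growth factor) for the knock-in lines and 20 ng/ml for the WT line, with 5% horse serum throughout. All lines had the same assay medium, at 0.2 ng/ml EGF and 1% stripped fetal bovine serum, for the last 24 h, and insulin, hydrocortisone and cholera toxin were shared by all. Maintenance without EGF therefore moves with both knock-in genotypes, and its part in any difference from WT cannot be told apart from that of the PIK3CA change. Whether each knock-in line is a single clone is not given in the sources used here, and gene counts do not show the PIK3CA alleles.

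Keratins are the intermediate filament proteins of epithelial cells. A filament is built from heterodimers of a type I and a type II keratin, and the pairs that a cell makes mark its layer and state. In the breast, KRT5 and KRT14 are used as marks of basal cells and KRT8, KRT18 and KRT19 as marks of luminal cells. In stratified epithelia, KRT1 and KRT10 come on as cells leave the basal layer, and KRT6, KRT16 and KRT17 are induced by wounding and stress.

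Several keratins are near copies of each other, which bears on how far a count can be assigned to a gene. The coding sequences of KRT6A and KRT6B, both 1692 bases long, differ at 42 bases (97.52% identity), those of KRT6A and KRT6C at 35 bases and those of KRT6B and KRT6C at 25. A stretch of coding bases 901 to 990 of the 3 genes (chromosome 12, GENCODE 44 transcripts, hg38) shows how little a read has to go on, with the bases that differ among them in capitals.
KRT6A: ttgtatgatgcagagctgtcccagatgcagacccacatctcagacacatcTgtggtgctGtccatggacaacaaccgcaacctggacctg
KRT6B: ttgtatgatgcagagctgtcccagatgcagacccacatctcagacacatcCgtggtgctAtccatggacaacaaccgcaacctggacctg
KRT6C: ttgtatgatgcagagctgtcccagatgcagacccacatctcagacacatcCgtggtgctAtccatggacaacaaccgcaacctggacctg
In these 90 bases KRT6B and KRT6C are the same, and KRT6A stands apart at 2 positions. Across all its transcripts, 12.7% of the 150-base windows of KRT6B, 12.7% of those of KRT6C and 6.74% of those of KRT6A were found unchanged in another gene. The share was 25.6% for KRT81 and 20.1% for KRT86, which match each other over a run of 605 coding bases, and below 0.5% for KRT14 and KRT16. Each of the other 27 members had 0%. Values of KRT6B, KRT6C and KRT86, each low beside an abundant copy, are therefore uncertain one by one. KRT83 shared 0% of its 150-base windows and 3.55% of its 75-base windows.

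Promoters of 14 of the 34 members are in the RefSeq table (GRCh38.p14, 250 bases before to 50 after the start), and those of KRT10 and KRT4 are shown because both genes differed steeply between the genotypes. KRT10 (chr17:40822565-40822864, minus strand) has a TATAAA box starting at position -29 and a CCAAT box on the other strand, both in capitals.
KRT10: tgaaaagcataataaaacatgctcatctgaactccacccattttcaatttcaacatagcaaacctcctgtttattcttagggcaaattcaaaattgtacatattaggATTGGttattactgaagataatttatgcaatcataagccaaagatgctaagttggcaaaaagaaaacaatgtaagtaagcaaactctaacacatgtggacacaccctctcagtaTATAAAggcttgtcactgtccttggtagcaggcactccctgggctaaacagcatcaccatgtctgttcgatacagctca
KRT4 (chr12:52814067-52814366, minus strand) held none of the 4 motifs searched, so it has no capitals.
KRT4: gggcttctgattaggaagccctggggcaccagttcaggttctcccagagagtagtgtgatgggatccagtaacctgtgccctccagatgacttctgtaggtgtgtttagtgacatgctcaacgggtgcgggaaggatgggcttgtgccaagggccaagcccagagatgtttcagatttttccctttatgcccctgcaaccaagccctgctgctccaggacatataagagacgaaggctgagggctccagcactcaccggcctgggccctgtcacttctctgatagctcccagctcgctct
All motifs were searched on both strands. The letters TATAAA were in 6 of the 14 keratin promoters and in 11.5% of all 35116 promoters of the table. CCAAT was in 4 of the 14 and in 34.6% of all, and the GC box GGGCGG in 2 of the 14 and in 45% of all. The AP-1 motif TGANTCA was in 0 of the 14 and in 7.71% of all. These are matches of letters in a short window and say nothing of which factors act there.

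Total counts ranged from 95533991 to 134245702 in E545K libraries, from 377093507 to 605972919 in H1047R libraries and from 95091894 to 136132315 in WT libraries. A count of 0 allows up to 3 counts, or 0.0224 to 0.0314 CPM in E545K, 0.00495 to 0.00796 CPM in H1047R and 0.0220 to 0.0316 CPM in WT, for counting error only. The H1047R libraries were deposited in a table of their own, so table, depth and genotype cannot be told apart there. They also held less protein-coding RNA (77.8% of counts, against 85.5% in E545K and 86.0% in WT) and varied more, with a biological coefficient of variation of 0.215, against 0.0288 in E545K and 0.0328 in WT. The epithelial markers EPCAM, CDH1, TP63, ITGA6, ITGB4 and LAMB3 were present in all 9 libraries and summed to 4402 ± 32.9 CPM in E545K, 3235 ± 102 CPM in H1047R and 4480 ± 29.4 CPM in WT. Of 17 fibroblast, leukocyte and endothelial markers, all but COL1A1, CD68 and KDR stayed under 2 CPM in every library, with LUM, COL1A2, COL3A1 and CLDN5 at 0 in at least 1. The 6 fibroblast markers, nearly all COL1A1, summed to 60.5 ± 1.5 CPM in E545K, 67.1 ± 7.43 CPM in H1047R and 48.2 ± 0.455 CPM in WT. The 6 endothelial markers, mostly KDR, summed to 11.5 ± 0.884, 22.9 ± 0.835 and 9.66 ± 0.989 CPM, and the 5 leukocyte markers, mostly CD68, to 7.62 ± 0.349, 7.0 ± 0.772 and 11.45 ± 0.272 CPM, in the same order. Their part in the results was not tested. WT replicate 1 stood apart from the other WT libraries in KRT19 and in a few luminal genes described with it.

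The keratins made up 3.84% ± 0.0133 of all counts in E545K, 4.28% ± 0.0692 in H1047R and 4.36% ± 0.0257 in WT (SD, n = 3 each) (two-sided exact permutation p = 0.1 for E545K against WT and 0.2 for H1047R against WT). CPM was divided by exon length to set levels of different genes side by side. That length joins all annotated exons of a gene, such as 6881 bases for KRT8 and 1929 for KRT81. It can exceed the length of the transcripts made, so the order of genes on this scale is approximate. On that scale stress keratins held 58.1% ± 0.481 of keratin RNA in H1047R, against 45.0% ± 0.0232 in E545K and 44.1% ± 0.0358 in WT. Hair keratins held 2.39% ± 0.669 in H1047R, against 15.5% ± 0.0229 in E545K and 17.5% ± 0.128 in WT, and nearly all of it was KRT81. Simple epithelial keratins held 2.96% ± 0.178 in H1047R, 8.79% ± 0.0185 in E545K and 10.4% ± 0.0913 in WT. Suprabasal keratins remained a small part, with 1.14% ± 0.190 in H1047R, 0.114% ± 0.00270 in E545K and 0.0896% ± 0.00274 in WT. Basal keratins held 35.4% ± 0.205 in H1047R, 30.7% ± 0.0271 in E545K and 27.9% ± 0.227 in WT. Libraries of different genotypes did not overlap in any of these class shares, and each comparison had a two-sided exact permutation p of 0.1, the smallest that 3 libraries against 3 allow.

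**Figure D1:**
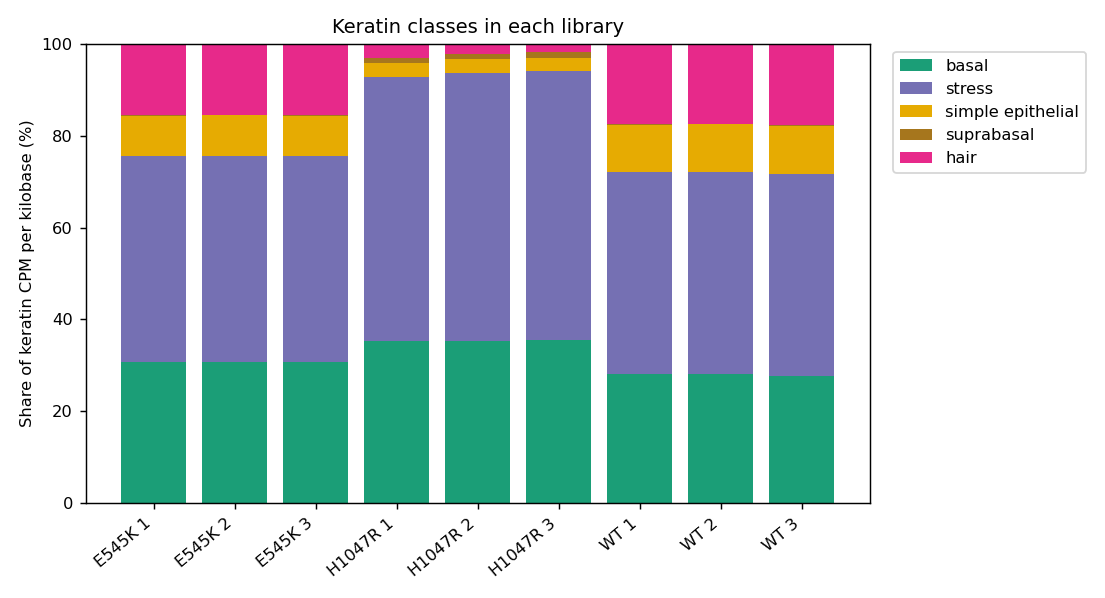
Share of keratin RNA in each of 5 keratin classes, as a percentage of the summed CPM per kilobase of exon of the 34 members, with 1 bar per library. The H1047R bars have more stress keratin (58.1% on average, against 45.0% in E545K and 44.1% in WT) and little hair keratin (2.39%, against 15.5% and 17.5%).

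The order of the members by level was led by KRT5 and KRT17 in all 3 genotypes. Per kilobase, KRT5 was highest in E545K (3137 ± 35.2 CPM per kb) and H1047R (3941 ± 228), and KRT17 was highest in WT (4224 ± 24.6, against 3373 ± 54.4 for KRT5). KRT17 was next in E545K (2949 ± 34.0) and in H1047R (3454 ± 316). Within each H1047R library KRT5 lay above KRT17, though the ranges of the 2 genes across libraries overlapped. KRT6A followed in both knock-in lines, at 1924 ± 13.9 CPM per kb in E545K and 2791 ± 193 in H1047R, and KRT81 in WT at 2345 ± 3.73, above KRT6A at 1630 ± 18.9. KRT16 took rank 7 in E545K, rank 4 in H1047R and rank 9 in WT. KRT14, the usual type I partner of KRT5, ranked only 10, 11 and 10 in E545K, H1047R and WT, with 12.3 ± 0.382, 24.9 ± 4.70 and 21.3 ± 0.578 CPM per kb. Among type I genes KRT17 was highest everywhere, followed per kilobase by KRT15 in E545K and WT and by KRT16 in H1047R. Some of this order was reversed in CPM not divided by length. In WT, KRT5 (13940 CPM) was then above KRT17 (12650), and KRT6A (4770) above KRT81 (4524). In H1047R, KRT15 (3926 CPM) was then above KRT16 (3299). Summed over all members, type II RNA exceeded type I RNA per kilobase 2.26 ± 0.00465 times in E545K, 1.31 ± 0.0411 times in H1047R and 1.80 ± 0.00771 times in WT.

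In E545K against WT, 15 of the 29 tested keratins (51.7%) were called, beside 36.6% of all 26412 genes tested, with 4 higher and 11 lower (17.7% and 18.9% of all genes). By at least 2-fold, 1 was higher and 2 were lower, or 10.3% of the members tested, beside 7.1% of all genes (4.52% higher and 2.58% lower). The 2 lower were KRT8 and KRT19, and KRT19 was no longer called without WT replicate 1. In H1047R against WT, 22 of 29 (75.9%) were called, beside 55.5% of all genes, with 14 higher and 8 lower (27.4% and 28.1% of all genes). By at least 2-fold, 10 were higher and 6 lower, or 55.2% of the members tested, beside 17.4% of all genes (10% higher and 7.39% lower). In H1047R against E545K, lines that share their EGF history, 22 of 29 were called, beside 53.2% of all genes, with 15 higher and 7 lower (25.9% and 27.3% of all genes). By at least 2-fold, 12 were higher and 5 lower, or 58.6% of the members tested, beside 15% of all genes (7.74% higher and 7.24% lower). The share of members at 2-fold or more was close to that of all genes in E545K against WT and above it in both H1047R comparisons. The median log2 fold change of the tested keratins was -0.29, 0.55 and 0.54 in these 3 comparisons, beside 0.003, 0.02 and 0.02 over all genes. The filter keeps a gene that is high in only 1 genotype, so these counts describe the members that passed it. When libraries were scaled by their totals alone, 66.1% of all calls in E545K against WT were higher, against 48.3% with TMM scaling, and 33.2% against 48.7% in H1047R against E545K. The comparisons share libraries and are not independent of each other. A call is an edgeR quasi-likelihood test with an adjusted p (Benjamini-Hochberg over all genes tested) under 0.05.

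**Figure D2:**
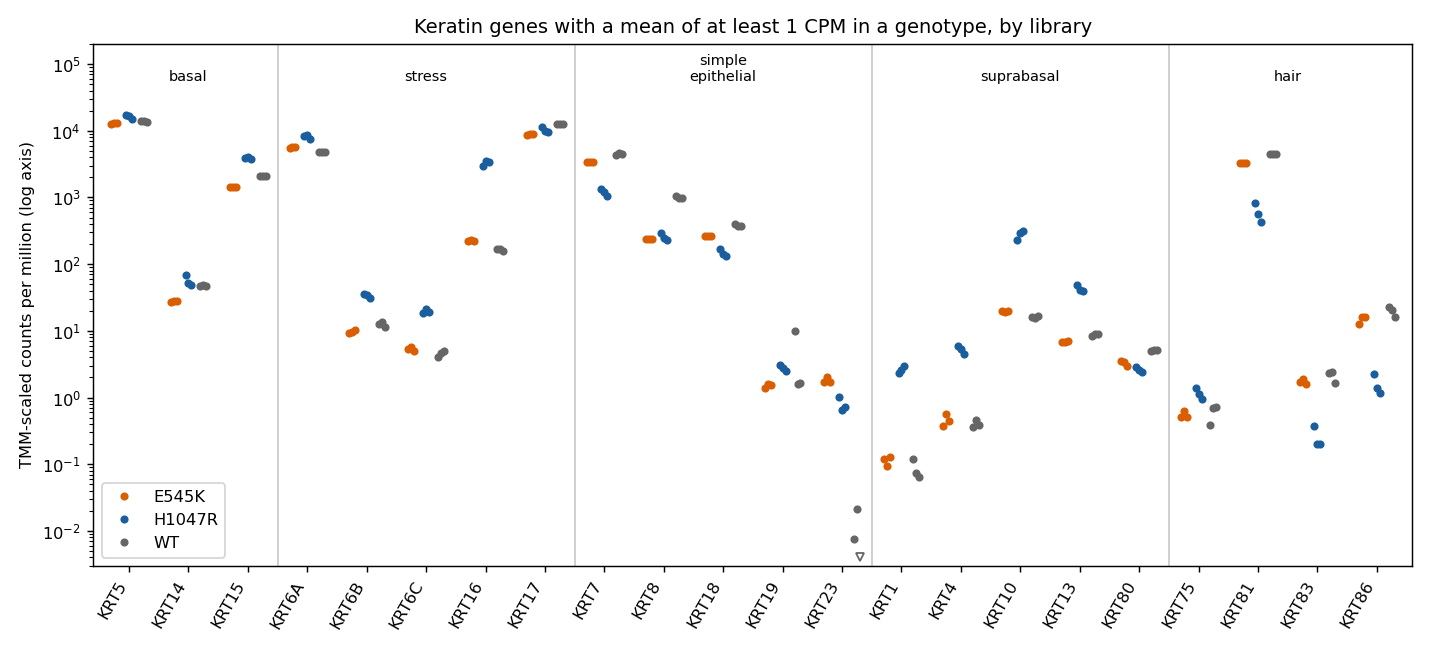
Level of each of the 22 keratins that reached a mean of 1 CPM in a genotype, as TMM-scaled CPM on a log axis, with 1 point per library; the open triangle marks the WT library with a KRT23 count of 0. H1047R libraries stand far above the others for KRT16, KRT1, KRT4 and KRT10 and far below them for KRT81, KRT83 and KRT86.

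Of the 3 basal keratins, KRT14 and KRT15 fell in E545K against WT, and KRT5 and KRT15 rose in H1047R against WT. That was 66.7% called in each, beside 36.6% and 55.5% of all genes. KRT5 (ENSG00000186081.12, chromosome 12, 52514575 to 52520530, minus strand), the main type II keratin of basal cells, had 12799, 13073 and 13022 CPM in E545K, 17071, 16550 and 15245 CPM in H1047R, and 14020, 14113 and 13686 CPM in WT. All H1047R libraries lay above all WT libraries, and all E545K libraries lay just below them. KRT5 rose in H1047R against WT by 0.22 ± 0.04 (log2 fold change ± approximate SE, adjusted p = 2.72e-04), while the difference of -0.10 ± 0.04 in E545K missed the threshold (adjusted p = 0.0605). Other settings gave that E545K difference an adjusted p from 1.01e-09, in the edgeR fit on the 2 groups only, to 0.721.

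KRT15 (ENSG00000171346.16, chromosome 17, 41513745 to 41522529, minus strand), a type I keratin of basal cells and, in hair follicles, of stem cells, moved in opposite directions. It had 1436, 1455 and 1458 CPM in E545K, 3887, 4069 and 3822 CPM in H1047R, and 2101, 2115 and 2070 CPM in WT. The 3 genotypes were separated without overlap. It fell by 0.53 ± 0.04 in E545K against WT (adjusted p = 2.30e-08) and rose by 0.91 ± 0.04 in H1047R against WT (adjusted p = 2.50e-11).

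KRT14 (ENSG00000186847.6, chromosome 17, 41582279 to 41586895, minus strand) had 26.8, 28.2 and 28.4 CPM in E545K, 68.2, 51.6 and 48.4 CPM in H1047R, and 47.8, 49.3 and 46.8 CPM in WT. E545K stood below both other genotypes, whereas H1047R and WT overlapped. KRT14 fell by 0.79 ± 0.09 in E545K against WT (adjusted p = 1.06e-05), and was higher in H1047R than in E545K by 1.01 ± 0.09 (adjusted p = 3.55e-07). In H1047R against WT the difference was 0.23 ± 0.09 (adjusted p = 0.0505).

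Of the 5 stress keratins, 4 rose in H1047R against WT and KRT17 fell, while in E545K against WT 2 rose and 2 fell. The shares called were 100% and 80%, beside 55.5% and 36.6% of all genes. KRT16 (ENSG00000186832.9, chromosome 17, 41609778 to 41615899, minus strand), the type I partner of KRT6 in wounded and hyperproliferative epidermis, had the largest change of the class. Its level was 224.9, 230.4 and 225.4 CPM in E545K, 2998, 3554 and 3346 CPM in H1047R, and 167.5, 167.5 and 159.6 CPM in WT. H1047R stood far above the other genotypes, and E545K was a little above WT without overlap. KRT16 rose by 4.32 ± 0.06 in H1047R against WT (adjusted p = 4.92e-16) and by 0.46 ± 0.05 in E545K against WT (adjusted p = 6.14e-06). In H1047R it made up 10.2% ± 1.20 of keratin RNA per kilobase, against 0.828% ± 0.00799 in E545K and 0.495% ± 0.0104 in WT. Its 150-base windows were 0.474% shared, with KRT14 and a pseudogene.

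KRT6A (ENSG00000205420.11, chromosome 12, 52487176 to 52493257, minus strand), the abundant type II stress keratin, had 5588, 5669 and 5636 CPM in E545K, 8300, 8654 and 7549 CPM in H1047R, and 4753, 4832 and 4726 CPM in WT. The genotypes did not overlap, and both knock-in lines lay above WT. It rose by 0.24 ± 0.04 in E545K (adjusted p = 5.98e-04) and by 0.78 ± 0.04 in H1047R (adjusted p = 1.38e-09), both against WT.

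KRT6B (ENSG00000185479.6, chromosome 12, 52446651 to 52452146, minus strand) had 9.22, 9.52 and 10.3 CPM in E545K, 35.5, 34.5 and 30.6 CPM in H1047R, and 12.7, 13.4 and 11.5 CPM in WT. It fell in E545K by 0.37 ± 0.07 (adjusted p = 8.89e-04) and rose in H1047R by 1.42 ± 0.07 (adjusted p = 2.20e-10). The genotypes were separated, with WT in the middle. KRT6C (ENSG00000170465.10, chromosome 12, 52468516 to 52473805, minus strand) had 5.41, 5.64 and 4.93 CPM in E545K, 18.5, 21.1 and 19.1 CPM in H1047R, and 4.10, 4.71 and 4.94 CPM in WT. H1047R stood above both, by 2.10 ± 0.08 against WT (adjusted p = 1.78e-11), and the E545K and WT libraries overlapped.

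These low copies did not keep a fixed ratio to KRT6A. KRT6B counts were 0.172% ± 0.00955 of KRT6A counts in E545K, 0.410% ± 0.0151 in H1047R and 0.262% ± 0.0170 in WT. KRT6C counts were 0.0947% ± 0.00630 of them in E545K, 0.240% ± 0.0155 in H1047R and 0.0962% ± 0.00922 in WT. The ratio is that of counts as assigned by the authors, and how many of them belong to KRT6A was not tested.

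KRT17 (ENSG00000128422.17, chromosome 17, 41619442 to 41624842, minus strand), a type I keratin of basal-like and injured epithelium, had 8717, 8899 and 8886 CPM in E545K, 11398, 10080 and 9564 CPM in H1047R, and 12667, 12722 and 12576 CPM in WT. Both knock-in lines lay below WT. It fell by 0.52 ± 0.05 in E545K (adjusted p = 1.33e-06) and by 0.29 ± 0.05 in H1047R (adjusted p = 1.91e-04), both against WT. Its direction in H1047R was thus opposite to that of the other stress keratins.

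**Figure D3:**
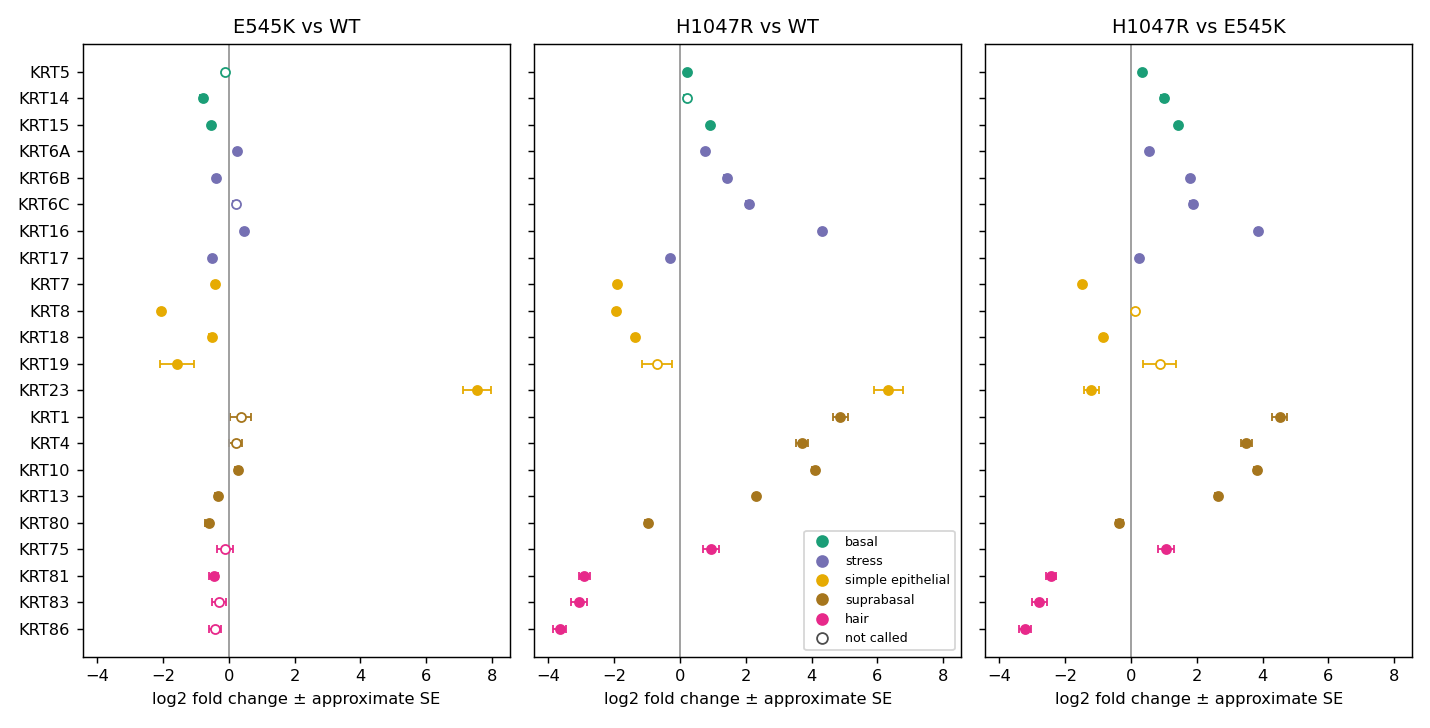
Log2 fold changes with approximate SE of the 22 keratins in E545K against WT, H1047R against WT and H1047R against E545K, coloured by class, with open points where the adjusted p was 0.05 or more. Positive values mean higher in the genotype named first; stress and suprabasal keratins lie mostly right of 0 in both H1047R panels, and KRT7, KRT18 and the hair keratins KRT81, KRT83 and KRT86 lie left of it.

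Of the 5 simple epithelial keratins tested, which mark luminal and single-layered epithelium, 4 fell and 1 rose in E545K against WT. In H1047R against WT 3 fell and 1 rose. The shares called were 100% in E545K and 80% in H1047R, beside 36.6% and 55.5% of all genes. KRT7 (ENSG00000135480.16, chromosome 12, 52232520 to 52252186, plus strand), a type II keratin of ductal and glandular epithelium, had 3346, 3426 and 3412 CPM in E545K, 1331, 1216 and 1066 CPM in H1047R, and 4392, 4573 and 4514 CPM in WT. The genotypes did not overlap, and H1047R was lowest. KRT7 fell by 0.40 ± 0.06 in E545K (adjusted p = 7.80e-05) and by 1.90 ± 0.06 in H1047R (adjusted p = 2.48e-12) against WT.

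KRT7 shares 7.85% of its exon bases with an antisense gene, KRT7-AS, and a pseudogene, KRT87P, and strand was not used in counting. KRT7-AS counts were 23.1% ± 0.368 of KRT7 counts in E545K, 24.1% ± 0.130 in H1047R and 23.2% ± 0.271 in WT. Its level moved beside that of KRT7 (-0.41 ± 0.06 in E545K and -1.85 ± 0.06 in H1047R against WT), and reads of the 2 genes cannot be told apart where they overlap.

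KRT8 (ENSG00000170421.12, chromosome 12, 52897187 to 52949954, minus strand), the type II keratin of luminal cells, had 237.6, 236.7 and 242.0 CPM in E545K, 293.3, 248.7 and 233.0 CPM in H1047R, and 1035, 978.0 and 978.4 CPM in WT. Every knock-in library lay far below every WT library, and the knock-in lines overlapped each other. KRT8 fell by 2.06 ± 0.07 in E545K (adjusted p = 9.94e-12) and by 1.95 ± 0.07 in H1047R (adjusted p = 4.33e-12). Between H1047R and E545K it differed by 0.11 ± 0.06 (adjusted p = 0.156).

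KRT18 (ENSG00000111057.11, chromosome 12, 52948871 to 52952906, plus strand), the type I partner of KRT8, had 262.5, 268.6 and 267.2 CPM in E545K, 170.3, 143.7 and 131.0 CPM in H1047R, and 395.6, 377.5 and 374.5 CPM in WT. The genotypes did not overlap, and here H1047R was the lowest. It fell by 0.52 ± 0.07 in E545K (adjusted p = 2.91e-05) and by 1.37 ± 0.07 in H1047R (adjusted p = 4.10e-10) against WT. KRT18 was also lower in H1047R than in E545K, by -0.84 ± 0.07 (adjusted p = 1.11e-07), so the partners did not move by equal amounts. The genes lie side by side on opposite strands and share exon bases, 17.1% of those of KRT18 and 7.63% of those of KRT8. Reads there were counted for both.

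KRT19 (ENSG00000171345.13, chromosome 17, 41523617 to 41528308, minus strand), the smallest type I keratin and a luminal marker, had 1.41, 1.59 and 1.53 CPM in E545K, 3.07, 2.77 and 2.46 CPM in H1047R, and 9.87, 1.61 and 1.68 CPM in WT. WT replicate 1 alone was high. With all libraries KRT19 was lower in E545K than in WT by -1.57 ± 0.51 (adjusted p = 0.0255), and without WT replicate 1 the difference was -0.13 (adjusted p = 0.584). In H1047R against WT the difference was -0.70 ± 0.47 (adjusted p = 0.226) with all libraries and 0.75 (adjusted p = 6.33e-04) without WT replicate 1. H1047R lay above E545K without overlap, by 0.87 ± 0.50 (adjusted p = 0.158), or 0.87 (adjusted p = 5.15e-05) without that library.

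Among 8 genes used as marks of luminal breast lines, chosen after the KRT19 values were seen, TFF1, PRLR and PGR were high in the same WT library. TFF1, a secreted trefoil peptide, had 0.435, 0.416 and 0.578 CPM in E545K, 0 in all 3 H1047R libraries, and 10.0, 0.507 and 0.742 CPM in WT. WT replicate 1 alone was high. PRLR, the prolactin receptor, had 0.126, 0.204 and 0.15 CPM in E545K, 0.708, 0.658 and 0.665 CPM in H1047R, and 1.84, 0.222 and 0.244 CPM in WT. PGR, the progesterone receptor, had 0.140, 0.120 and 0.0199 CPM in E545K, 0.0288, 0 and 0.00768 CPM in H1047R, and 0.929, 0.106 and 0.106 CPM in WT. ESR1, GATA3, FOXA1, AGR2 and XBP1 were less than 2 times as high in WT replicate 1 as in either other WT library. The whole list summed to 92.8 to 93.8 CPM in E545K, 84.7 to 96.7 CPM in H1047R and 79.6 to 103.5 CPM in WT. What set this library apart was not tested.

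**Figure D4:**
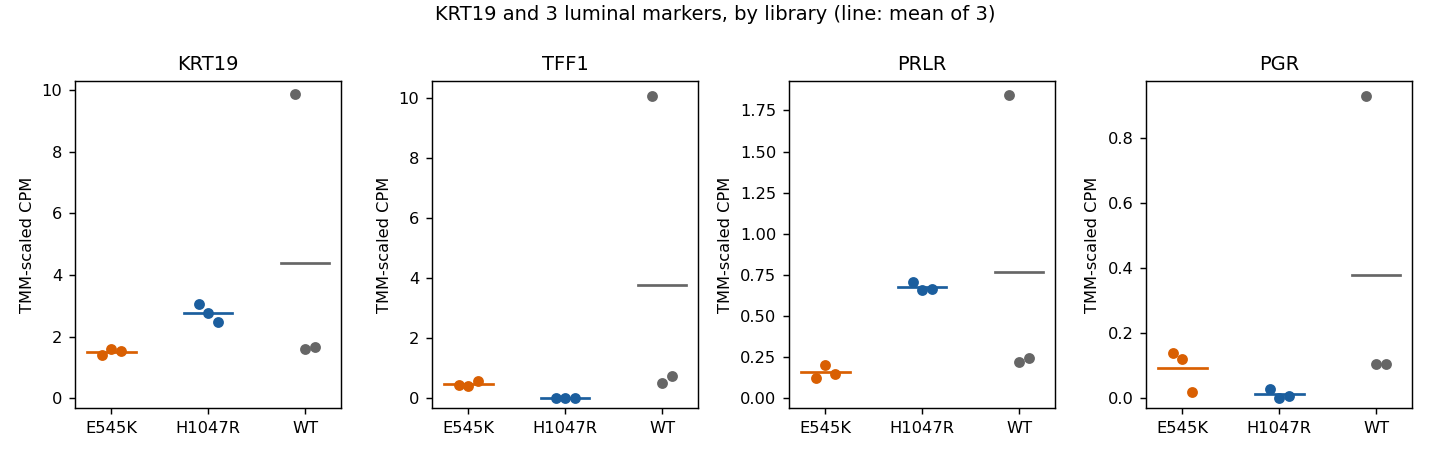
Levels of KRT19 and of 3 luminal genes, TFF1, PRLR and PGR, as TMM-scaled CPM on linear axes, with 1 point per library and a line at the mean of 3. In WT a single library, replicate 1, holds the high value in all 4 panels, such as 9.87 CPM of KRT19 beside 1.61 and 1.68 CPM.

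KRT23 (ENSG00000108244.16, chromosome 17, 40922696 to 40937634, minus strand), a type I keratin of simple epithelium, was all but undetected in WT and present in both knock-in lines. It had 247, 220 and 172 counts (1.73, 2.04 and 1.71 CPM) in E545K, 350, 377 and 376 counts (1.01, 0.653 and 0.722 CPM) in H1047R, and 1, 2 and 0 counts in WT. Scaled for depth, the summed counts in E545K were 196 times those in WT (95% exact interval 66.9 to 954), and those in H1047R 82.3 times (28.1 to 400). These intervals cover counting error only, on counts in which mates were not paired, and not the spread between libraries. It rose against WT in E545K (adjusted p = 2.86e-09) and in H1047R (adjusted p = 1.13e-08). H1047R was lower than E545K by -1.21 ± 0.22 (adjusted p = 2.61e-04), without overlap. The log2 fold changes plotted for KRT23 against WT rest on those 3 WT counts and are no bound. KRT20, an intestinal and urothelial keratin, had at most 4 counts in any library and was not tested.

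Of the 12 suprabasal keratins, 11 were tested, and in H1047R against WT 6 rose, all of them by at least 2-fold, and KRT80 fell. The share called was 63.6%, near the 55.5% of all genes, and the share at 2-fold or more 54.5%, beside 17.4%. In E545K against WT, KRT10 rose and KRT13 and KRT80 fell, or 27.3% of those tested, beside 36.6% of all genes. KRT10 (ENSG00000186395.8, chromosome 17, 40818117 to 40822614, minus strand), the type I keratin of differentiating epidermal cells, had 19.6, 19.0 and 20.2 CPM in E545K, 233.3, 297.4 and 311.0 CPM in H1047R, and 16.2, 15.6 and 16.8 CPM in WT. H1047R stood far above, and the E545K libraries lay a little above the WT libraries. It rose by 4.12 ± 0.09 in H1047R against WT (adjusted p = 4.22e-14) and by 0.28 ± 0.09 in E545K against WT (adjusted p = 0.0205). Over the settings that left out no single library, that E545K difference in KRT10 had an adjusted p of 1.77e-06 to 0.0359. It missed the threshold in some fits that set aside a single library. The adjusted p was then 0.0604 for the first and 0.0814 for the second WT library, and 0.0594 for the first and 0.075 for the third E545K library.

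KRT1 (ENSG00000167768.4, chromosome 12, 52674736 to 52680407, minus strand), the type II partner of KRT10, stayed far less abundant. It had 0.119, 0.0925 and 0.130 CPM in E545K, 2.35, 2.59 and 2.94 CPM in H1047R, and 0.119, 0.0740 and 0.0636 CPM in WT. The H1047R libraries were high, and E545K and WT overlapped. KRT1 rose by 4.88 ± 0.23 in H1047R against WT (adjusted p = 1.79e-10). Per kilobase it reached 1.06 ± 0.119 CPM in H1047R, beside 130 ± 19.2 for KRT10.

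KRT4 and KRT13 are the partners of the suprabasal layers of mucosal epithelia such as the oesophagus. KRT4 (ENSG00000170477.13, chromosome 12, 52806549 to 52814116, minus strand) had 0.379, 0.564 and 0.449 CPM in E545K, 5.89, 5.25 and 4.52 CPM in H1047R, and 0.357, 0.455 and 0.392 CPM in WT. It rose by 3.71 ± 0.17 in H1047R against WT (adjusted p = 9.52e-11), and the E545K and WT libraries overlapped.

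KRT13 (ENSG00000171401.15, chromosome 17, 41500981 to 41505705, minus strand) had 6.85, 6.78 and 7.14 CPM in E545K, 49.1, 40.5 and 39.9 CPM in H1047R, and 8.35, 8.86 and 8.89 CPM in WT. The genotypes did not overlap. It rose by 2.31 ± 0.08 in H1047R (adjusted p = 2.45e-12) and fell by 0.33 ± 0.08 in E545K (adjusted p = 0.00425) against WT. KRT13 shares 16.3% of its exon bases with another annotated gene.

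KRT80 (ENSG00000167767.14, chromosome 12, 52168996 to 52192014, minus strand), a type II keratin near desmosomes in differentiating cells, went the other way. It had 3.59, 3.45 and 2.95 CPM in E545K, 2.84, 2.60 and 2.41 CPM in H1047R, and 4.96, 5.16 and 5.15 CPM in WT. Both knock-in lines lay below WT, by 0.61 ± 0.10 in E545K (log2 fold change -0.61, adjusted p = 2.08e-04) and 0.96 ± 0.10 in H1047R (-0.96, adjusted p = 7.06e-07).

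The remaining suprabasal keratins were near the floor. KRT78 had 0.074 to 0.219 CPM in E545K, 0.345 to 0.430 CPM in H1047R and 0.0317 to 0.104 CPM in WT, and it rose in H1047R against WT (2.61 ± 0.48, adjusted p = 2.88e-04). KRT79 had 0.0648 to 0.154 CPM in E545K, 0.121 to 0.187 CPM in H1047R and 0.0297 to 0.0529 CPM in WT, and it rose in H1047R against WT (1.87 ± 0.54, adjusted p = 0.00829). KRT77 was called only between H1047R, with 0.0780 to 0.180 CPM, and E545K, with 0.0199 to 0.0463 CPM (1.90 ± 0.75, adjusted p = 0.0453). The epidermal keratin KRT2, the corneal keratin KRT3 and the palm and sole keratin KRT9 stayed under 0.3 CPM in every library and were called in none of the 3 comparisons. KRT24 had 2 to 13 counts per library and was not tested.

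Of the 5 hair keratins tested, KRT81, KRT83 and KRT86 fell and KRT75 rose in H1047R against WT. In E545K against WT KRT81 alone was called. The shares called were 80% in H1047R and 20% in E545K, beside 55.5% and 36.6% of all genes. KRT81 (ENSG00000205426.10, chromosome 12, 52285913 to 52291534, minus strand), a type II keratin of the hair cortex that is also made by breast cell lines, had 3257, 3308 and 3300 CPM in E545K, 821.4, 564.2 and 428.9 CPM in H1047R, and 4517, 4531 and 4526 CPM in WT. The genotypes did not overlap, and the H1047R libraries were spread widely among themselves. It fell by 2.90 ± 0.16 in H1047R against WT (adjusted p = 7.74e-10). In E545K against WT it was lower by 0.46 ± 0.15 (log2 fold change -0.46, adjusted p = 0.0246), a call that DESeq2 did not make (adjusted p = 0.0976). Leaving out any of the 6 E545K and WT libraries also ended it (adjusted p 0.0588 to 0.0728). Over the settings that left out no single library, the log2 fold change was -0.47 to -0.367 and the adjusted p 6.04e-27 to 0.0976.

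KRT86 (ENSG00000170442.12, chromosome 12, 52249300 to 52309163, plus strand), a cortex keratin, had 12.5, 16.0 and 16.1 CPM in E545K, 2.27, 1.40 and 1.17 CPM in H1047R, and 22.5, 20.8 and 16.3 CPM in WT. H1047R lay far below the others, and the highest E545K library came close to the lowest WT library. It fell by 3.65 ± 0.20 in H1047R against WT (adjusted p = 5.95e-10), and the difference of -0.42 ± 0.18 in E545K was not called (adjusted p = 0.0764). That E545K difference had an adjusted p of 9.94e-06 in the edgeR fit on the 2 groups only. Its range over other settings was 5.56e-09 to 0.252. KRT86 shares 18.8% of its exon bases with other annotated genes. KRT83 (ENSG00000170523.3, chromosome 12, 52314301 to 52321398, minus strand), another cortex keratin, had 1.72, 1.91 and 1.60 CPM in E545K, 0.374, 0.198 and 0.202 CPM in H1047R, and 2.31, 2.44 and 1.65 CPM in WT. E545K and WT overlapped, and H1047R stood below both. It fell by 3.08 ± 0.24 in H1047R against WT (adjusted p = 4.45e-08).

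Counts of both genes were small beside those of KRT81. KRT86 counts were 0.452% ± 0.0584 of KRT81 counts in E545K, 0.266% ± 0.0154 in H1047R and 0.439% ± 0.0711 in WT, and KRT83 counts 0.0531% ± 0.00450, 0.0425% ± 0.00655 and 0.0472% ± 0.00932 in the same order. In H1047R against WT the KRT86 share was lower (two-sided exact permutation p = 0.1, the smallest possible), and the KRT83 share had p = 0.5. The pseudogene KRT87P also fell, by 2.38 ± 0.09 in H1047R against WT, but its share of KRT81 counts was higher, at 0.843% ± 0.162 in H1047R, 0.594% ± 0.0181 in E545K and 0.562% ± 0.0352 in WT (exact permutation p = 0.1 for H1047R against WT). How many of these counts came from KRT81 transcripts was not tested.

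KRT75 (ENSG00000170454.6, chromosome 12, 52424070 to 52434371, minus strand), a type II keratin of the hair companion layer, rose instead. It had 0.519, 0.638 and 0.518 CPM in E545K, 1.40, 1.13 and 0.964 CPM in H1047R, and 0.394, 0.708 and 0.732 CPM in WT. E545K and WT overlapped, and H1047R lay above both. Its log2 fold change in H1047R against WT was 0.94 ± 0.24 (adjusted p = 0.00369). The inner root sheath keratin KRT72 stayed under 0.15 CPM and was not called. KRT31, KRT34 and KRT73 had at most 18 counts in any library and were not tested.

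All but 13 of the members lie in 1 cluster on chromosome 12, with 21 genes over 783.9 kb (20 type II genes and the type I gene KRT18), and the other 13 lie over 926.9 kb of chromosome 17. In gene order, the 5 members at the low-coordinate end of chromosome 12, KRT80, KRT7, KRT86, KRT81 and KRT83, were all called lower in H1047R against WT, within 152.4 kb. The next 5, KRT75, KRT6B, KRT6C, KRT6A and KRT5, were all called higher. This order leaves out 21 further keratin genes that are not members, among them KRT85, KRT84 and KRT82, which lie between KRT83 and KRT75. In H1047R against WT, KRT85 was called higher, KRT84 was not called and KRT82 was not tested. At the far end KRT8 and KRT18 were lower, and the members just before them, KRT4, KRT79 and KRT78, were higher. On chromosome 17, KRT16 rose in H1047R against WT, its neighbour KRT17 fell and its neighbour KRT14 was not called. Position was read off after the calls, with no test, and some neighbours share bases or reads as described above.

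**Figure D5:**
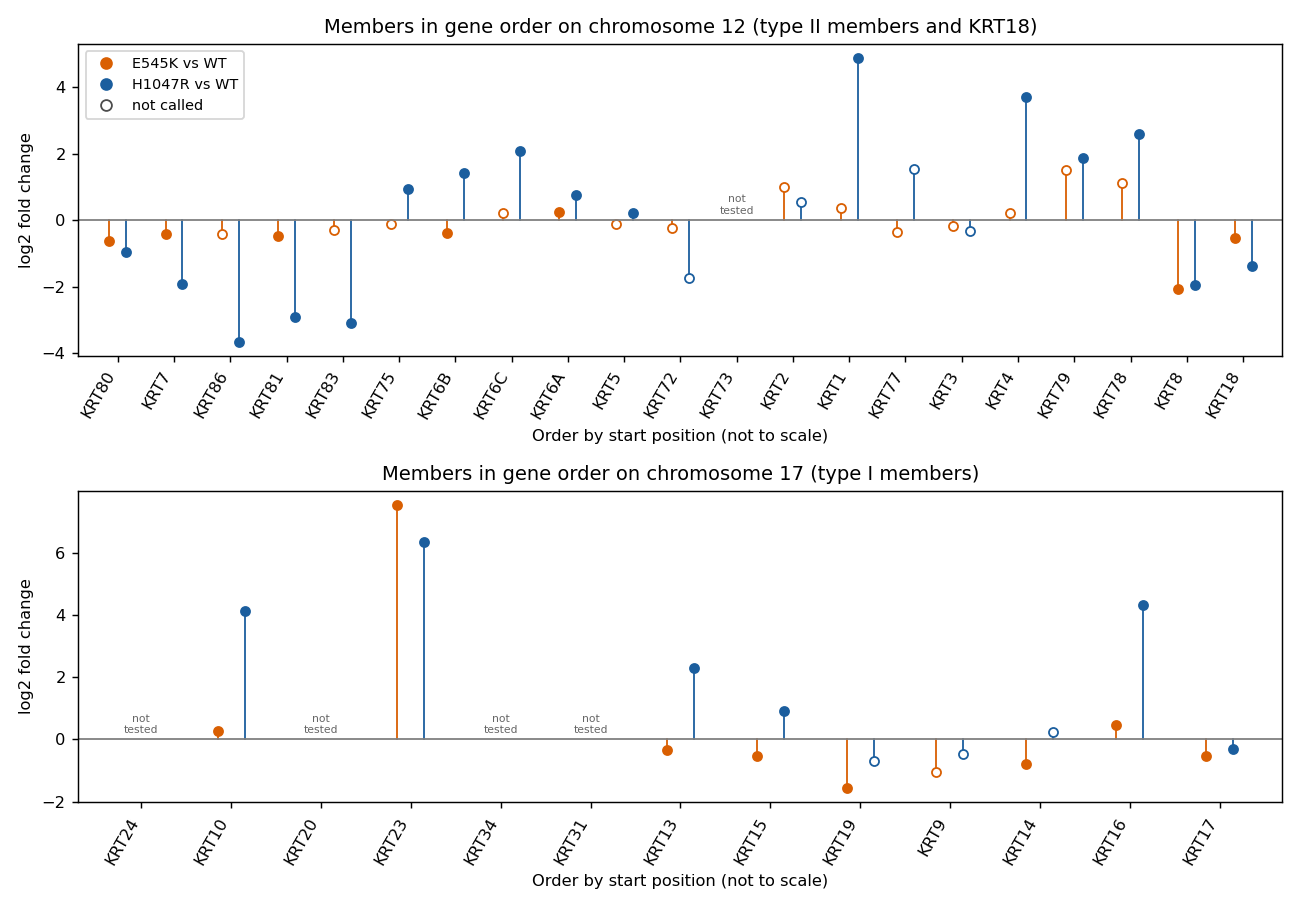
Log2 fold changes in E545K against WT and H1047R against WT for the members in gene order on chromosomes 12 and 17, evenly spaced rather than to scale, with open points where not called. On chromosome 12 the 5 members on the left are lower in H1047R (-0.96 to -3.65) and the next 5 are higher (0.22 to 2.10).

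Genes that anchor or bundle keratin filaments were mixed. Of 16 such genes, all tested, 2 were higher and 9 lower in E545K against WT, or 68.8%, beside 36.6% of all genes. In H1047R against WT 6 were higher and 5 lower, again 68.8%, beside 55.5% of all genes, and in H1047R against E545K 9 were higher and 4 lower, or 81.2%, beside 53.2%. Their median log2 fold changes were -0.30, 0.06 and 0.43 in these comparisons. Desmoplakin (DSP), which ties keratin to desmosomes, had 2570 ± 13.8 CPM in E545K, 4760 ± 329 CPM in H1047R and 2020 ± 12.7 CPM in WT, and rose by 1.24 ± 0.05 in H1047R against WT (adjusted p = 9.24e-12). The desmosomal plaque protein PKP1 had 0.939 ± 0.165, 3.16 ± 0.408 and 1.20 ± 0.159 CPM in E545K, H1047R and WT, and rose by 1.39 ± 0.16 in H1047R against WT (adjusted p = 2.24e-06).

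Filaggrin and hornerin, relatives that bundle keratin in the outer epidermis, rose in H1047R. Filaggrin (FLG) had 3.31 ± 0.308 CPM in E545K, 9.94 ± 2.52 CPM in H1047R and 4.46 ± 0.377 CPM in WT, a log2 fold change of 1.16 ± 0.14 in H1047R against WT (adjusted p = 5.74e-06). Hornerin (HRNR) had 1.00 ± 0.117 CPM in E545K, 6.83 ± 2.16 CPM in H1047R and 2.02 ± 0.250 CPM in WT. Hornerin rose by 1.75 ± 0.18 in H1047R (adjusted p = 1.09e-06) and fell by 1.01 ± 0.21 in E545K (adjusted p = 0.00144), both against WT. Plakoglobin (JUP), another desmosomal plaque protein, fell in both lines, by 0.48 ± 0.04 in E545K and 0.64 ± 0.04 in H1047R.

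Of 15 other intermediate filament genes, 11 were tested. In E545K against WT 2 were higher and 3 lower, or 45.5%, beside 36.6% of all genes, and in H1047R against WT 1 was higher and 8 lower, or 81.8%, beside 55.5%. By at least 2-fold, 5 were lower in H1047R against WT, or 45.5% of those tested, beside 7.39% of all genes. Among them were NES, DES and NEFH, which averaged under 0.25 CPM in each genotype. Vimentin (VIM), the filament of mesenchymal cells, had 11.3, 11.2 and 12.2 CPM in E545K, 3.12, 2.68 and 2.79 CPM in H1047R, and 105.2, 107.3 and 107.1 CPM in WT. The genotypes were far apart. Vimentin fell by 3.20 ± 0.06 in E545K (adjusted p = 5.53e-14) and by 5.22 ± 0.06 in H1047R (adjusted p = 8.72e-17) against WT. VIM shares 24.3% of its exon bases with other annotated genes, VIM-AS1 among them. Lamin B1 (LMNB1), a nuclear filament protein whose loss marks senescent cells, had 16.8 ± 0.619 CPM in E545K, 3.81 ± 0.935 CPM in H1047R and 11.9 ± 0.739 CPM in WT. It rose by 0.49 ± 0.12 in E545K (adjusted p = 0.00517) and fell by 1.65 ± 0.12 in H1047R (adjusted p = 2.73e-08). In bulk RNA, fewer cells of a type and less RNA per cell cannot be told apart, and this holds for every keratin above.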

How the data were processed

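RNA counts per gene were deposited in 2 tables, 1 with the E545K and WT libraries and 1 with the H1047R libraries. Per the file headers, featureCounts 2.0.0 counted exons of GENCODE 32 genes, every overlapping gene received the read, strand was not used and each mate was counted by itself. The build was hg38 per the submitters' processing notes, which list STAR, SAMtools 1.5, Trim Galore 0.4.0, FastQC and cutadapt and give no settings. Identifiers were matched without version to GENCODE 44 names (60295 matched, 314 did not).

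The deposited counts were tested with edgeR 4.0.16 (R 4.3.3) with filterByExpr, TMM scaling and a quasi-likelihood fit of genotype to the 9 libraries, adjusted over 26412 genes. The pooled biological coefficient of variation was 0.118. The fit used 1 estimate of spread per gene for all genotypes, though the coefficient was 0.0288 in E545K, 0.0328 in WT and 0.215 in H1047R. SE and p-values depend on this pooling, and can be too large in E545K against WT and too small in comparisons with H1047R. Levels were computed here as CPM with TMM-scaled library sizes. The SE is the log2 fold change divided by the square root of F, and can be too small near the floor. Shares were compared by exact permutation (scipy 1.17.1). The fit was checked on counts simulated with the same spread in all libraries, so the check does not cover the unequal spread of the genotypes. A leukocyte marker is not reported here and was left out of its list. Members, classes and lists were chosen with earlier results of these data known. All 34 members are accounted for, with values per library for those reaching 1 CPM. Genes of other lists were named if called at 2-fold or more with a mean of at least 1 CPM in a genotype. Named as well were JUP, NES, DES, NEFH, KRT7-AS, KRT87P, KRT82, KRT84, KRT85 and the luminal genes, chosen after their values were seen. The labels do not say that replicates were separate cultures, so the p-values cover spread among libraries that may be technical. Alternatives were other scalings and filters, DESeq2 1.42.0, limma 3.58.1 voom, a replicate block, fits on 2 groups and leaving out each library.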

Additional observations from a re-analysis of the deposited data

Results flagged for a closer look

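KRT15, KRT6B and KRT13 were called lower in E545K against WT and higher in H1047R against WT. The direct comparison of H1047R with E545K was called too, but it follows from those opposite differences and is no separate support. The log2 fold change in H1047R against E545K was 1.44 ± 0.04 for KRT15 (adjusted p = 3.96e-13), 1.79 ± 0.07 for KRT6B (adjusted p = 3.57e-11) and 2.64 ± 0.08 for KRT13 (adjusted p = 1.41e-12), by edgeR's quasi-likelihood test. In all 3 genes every E545K library lay below every WT library and every H1047R library above. Over all genes tested, 18.9% were called lower in E545K and 27.4% higher in H1047R, each against WT. The share of genes with both calls was not counted. KRT6B shares stretches of sequence with KRT6A and KRT6C, and the H1047R libraries come from their own table. The part of either in the difference was not tested.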

How the results depend on the processing

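The counts of genes called, over all genes, the keratins and 2 related lists, gave 12 results under 17 alternatives each, and all 204 values stayed within 1.5 times the reported count. Called keratins ranged from 14 to 18 in E545K against WT, 20 to 24 in H1047R against WT and 20 to 24 in H1047R against E545K under other settings, and from 12 to 18, 22 to 24 and 21 to 23 when 1 library was left out. Of 1119 values of single keratins under the alternatives, 1058 kept direction and side of the threshold, 17 lost the call, 40 gained it and 4 changed sign, over 11 of 66 results. The sign changed for KRT8 in H1047R against E545K with library totals only (-0.0269), for KRT19 in H1047R against WT without WT replicate 1, and for KRT75 in E545K against WT without WT replicate 2 or 3. Leaving out 1 library gave KRT19 a range of -1.08 to 0.748 and KRT75 a range of -0.372 to 0.0364. The lost calls were those of KRT81, KRT10 and KRT19 in E545K against WT, where KRT19 also missed the threshold with voom (adjusted p = 0.0549), DESeq2 (0.0735) and without any 1 E545K library (0.0675 to 0.0868). Calls were gained for KRT5, KRT6C and KRT86 in E545K against WT, KRT14 and KRT19 in H1047R against WT, and KRT8 and KRT19 in H1047R against E545K, each under some alternatives. With library totals only, the median log2 fold change of all genes was 0.0962 in E545K against WT and -0.119 in H1047R against E545K. Deviations of libraries from their genotype mean correlated by -0.0741 to 0.0910 between same-numbered libraries of different genotypes. Between differently numbered libraries the range was -0.111 to 0.0740. These values showed no pairing by replicate number, and with 3 libraries per genotype they cannot exclude it. With the replicate block, KRT6C in E545K against WT (0.22, adjusted p = 0.0430) and KRT14 in H1047R against WT (0.22, adjusted p = 0.0462) gained a call, and none of the others among the 22 keratins at 1 CPM or more changed its call; KRT77, KRT78 and KRT79 were not followed singly. Without KRT6A, KRT6B, KRT6C, KRT16 and KRT17, keratins took 2.29% of counts in E545K, 2.19% in H1047R and 2.62% in WT. Of the keratin RNA then left, basal keratins held 55.7% in E545K, 84.5% in H1047R and 49.9% in WT, simple epithelial keratins 16.0%, 7.08% and 18.6%, suprabasal keratins 0.208%, 2.73% and 0.160%, and hair keratins 28.1%, 5.69% and 31.4%. Without division by exon length, hair keratins took 9.09% of keratin CPM in E545K, 1.35% in H1047R and 10.3% in WT, and stress keratins 40.4%, 48.9% and 39.9%. The genes left out above were all 5 stress keratins, KRT17 among them with 0% of its 150-base windows shared, so that class has no value there. KRT81 and KRT86, with 25.6% and 20.1% of these windows shared, were kept, so the hair keratin shares still hold near copies. The share of all counts uses no length division, so it has no value without it. Keratins near the floor of 3 counts, such as KRT77 to KRT79 and KRT23 in WT, are limited by depth.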
